A study of Mus musculus with 6 samples.

Results

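The nuclear genes for subunits of the mitochondrial respiratory chain were followed in neurospheres, spheres of neural stem and progenitor cells that float in the culture medium. Members were the probes of the non-normalised intensity table whose platform gene symbol starts with Ndufa, Ndufb, Ndufc, Ndufs, Ndufv, Uqcr, Cox4i, Cox5, Cox6, Cox7 or Cox8, or is Sdha, Sdhb, Sdhc, Sdhd or Cyc1, with the Ndufaf assembly factors left out. By name these were 94 of 45281 probes, for 64 genes. With a detection p under 0.05 required on at least 3 of the 6 arrays, 82 probes of 58 genes were kept, of 18274 kept probes in all. A gene is given by its brightest kept probe.

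Total RNA was hybridised to 6 Illumina MouseWG-6 arrays. The cells came from the subventricular zone, where neurogenesis persists in adult mice. The mice were 18 months old, and cultures received EGF and FGF, no further treatment, and were taken at 14 days in vitro. The groups were wt primary spheres (1 array), Wip1-transgenic (Wip1Tg) primary spheres (2 arrays), wt secondary spheres (2 arrays) and Wip1Tg secondary spheres (1 array). Wip1 is a phosphatase that acts on p53 and on DNA damage kinases. The promoter of the transgene, the number of animals behind an array and whether the secondary spheres grew from the primary ones measured here are not given in the labels. The labels do not state whether arrays of a group are biological replicates, so the p-values describe only the spread among these arrays, which may be technical.

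The respiratory chain carries electrons from NADH and succinate to oxygen in the inner mitochondrial membrane. Complex I oxidises NADH, complex II oxidises succinate and is at once an enzyme of the tricarboxylic acid cycle, complex III passes electrons on to cytochrome c, and complex IV, cytochrome c oxidase, hands them to oxygen. Complexes I, III and IV pump the protons that drive ATP synthase. Most subunits are encoded in the nucleus and a few in mitochondrial DNA, and some complex IV subunits exist in a ubiquitous form and a form typical of muscle, brown fat or testis. Neural stem cells are known for a glycolytic metabolism that gives way to oxidative phosphorylation as they differentiate.

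Between 17623 and 18699 probes were above background per array, and log2 values over the kept probes correlated at 0.9887 and 0.9896 within the replicated groups and at 0.939 to 0.951 between primary and secondary arrays. The labels call the samples gender matched, but the probes of Xist (4 of 4) gave signal on Wip1Tg primary 2 and the 3 secondary arrays, and none of them did on wt primary 1 or Wip1Tg primary 1. The passage counts are therefore also given for the 4 arrays with Xist signal, of which 1 is primary. Of 6 neural stem and progenitor markers with a probe, Nes, Sox2, Vim, Fabp7 and Egfr were above background on all arrays and Msi1 on 0. Of 6 astrocyte markers with a probe, 5 were above background on each primary and 6 on each secondary array, with a mean log2 intensity of 11.1 to 11.3 in primary and 11.8 to 12.2 in secondary spheres. Of 6 oligodendrocyte lineage markers with a probe, 6 were above background on every array. Their mean in primary spheres was 9.84 for wt and 8.90 and 9.56 for Wip1Tg. In secondary spheres it was 9.70 and 9.91 for wt and 9.17 for Wip1Tg. Mbp was highest on the wt primary array, at 10.34, and Olig2 lowest there, at 7.58. Of 5 neuron markers, 2 were above background on each primary and 3 or 4 on each secondary array. Map2 was at 11.79 to 12.10, and the others were dim. Snap25 was detected on 0 arrays, Tubb3 on 1, Dcx on 3 and Rbfox3 on 5, at most at 4.89, 5.67, 6.75 and 6.18. Dcx was at 4.91 to 5.18 in primary and 6.39 to 6.75 in secondary spheres. Of the markers of microglia and endothelium, Itgam, Cx3cr1, Ptprc, Cdh5, Pecam1 and Cldn5 were detected on 0 arrays, Csf1r on 4, Aif1 on 2 and Kdr on 2, at most at 5.57, 5.97 and 6.16.

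Secondary spheres had slightly more signal from most respiratory chain genes than primary spheres. The fitted difference, with genotype in the model, was positive for 51 of 58 genes, where 54.3% of all kept probes were positive, and its median was 0.24 log2 against 0.04 for all probes. With arrays scaled to one median in place of quantiles the sign turned, with 16 of 58 genes positive and a median of -0.08, while the median of all probes moved to -0.23. Relative to the median of all probes the members stood 0.19 log2 higher in the first case and 0.16 higher in the second, with 50 and 48 of 58 genes above it. The members were brighter than most probes, with a median level of 12.89 against 7.68 for all kept probes. Of the 58 genes 43 lay above the 90th percentile of level. No comparison was made with probes of like level, and whether the offset goes with level was not tested. The array labels share the same number and run from A to C for primary and from D to F for secondary spheres. Passage therefore cannot be told apart from that order. In bulk RNA a change in the share of a cell type and a change in RNA per cell cannot be told apart. The astrocyte markers also differed between passages, but not all one way. Aldoc, Slc1a2, Slc1a3, Aqp4 and S100b had every secondary array above every primary one, Aldoc at 12.21 to 12.71 in primary and 14.56 to 14.74 in secondary spheres. Gfap, the intermediate filament of astrocytes, was lower on every secondary array, at 11.27 to 12.68 against 12.89 to 13.49. Of the other neural markers, Vim (14.35 to 14.64 in primary and 13.42 to 13.70 in secondary spheres), Cspg4 and Map2 were lower on every secondary array. Olig1 and Dcx were higher on every secondary array, and the remaining ones overlapped between passages. Of all probes 45.3% did not overlap. The part of these markers in the respiratory chain difference was not tested.

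Few single genes passed the test. By limma, at a Benjamini-Hochberg adjusted p under 0.05 over all kept probes, 6 genes rose in secondary spheres (Cox5a, Ndufa1, Ndufa9, Sdhc, Uqcrq and Cox8b) and 1, Cox6b2, fell. These 7 are 12.1% of the 58 genes, below the 25.5% of all probes that passed (12.9% higher and 12.6% lower). The share differed between fits, and the cause was not tested. With a trend of the variance with intensity and robust moderation 24 genes rose and 2 fell, against 15.2% and 14.8% of all probes, and without background correction 22 rose and 2 fell, against 15.2% and 14.3%. The median standard error of the members was 0.125 log2 in the first fit and 0.0917 and 0.0835 in these. Under median scaling 1 gene, Cox8b, rose and 3 fell (Cox6b2, Ndufb2 and Ndufv3), against 4.41% and 23.5%. On the 4 arrays with Xist signal, where the fitted difference is that of 1 Wip1Tg secondary and 1 Wip1Tg primary array, 51 of 58 differences were positive, with a median of 0.28 log2, and Cox8b alone passed, against 8.04% of all probes. Without the Wip1Tg secondary array 46 were positive and 0 passed by limma (8 at an unadjusted p under 0.05), and without the other arrays in turn 2 to 6 passed.

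**Figure D1:**
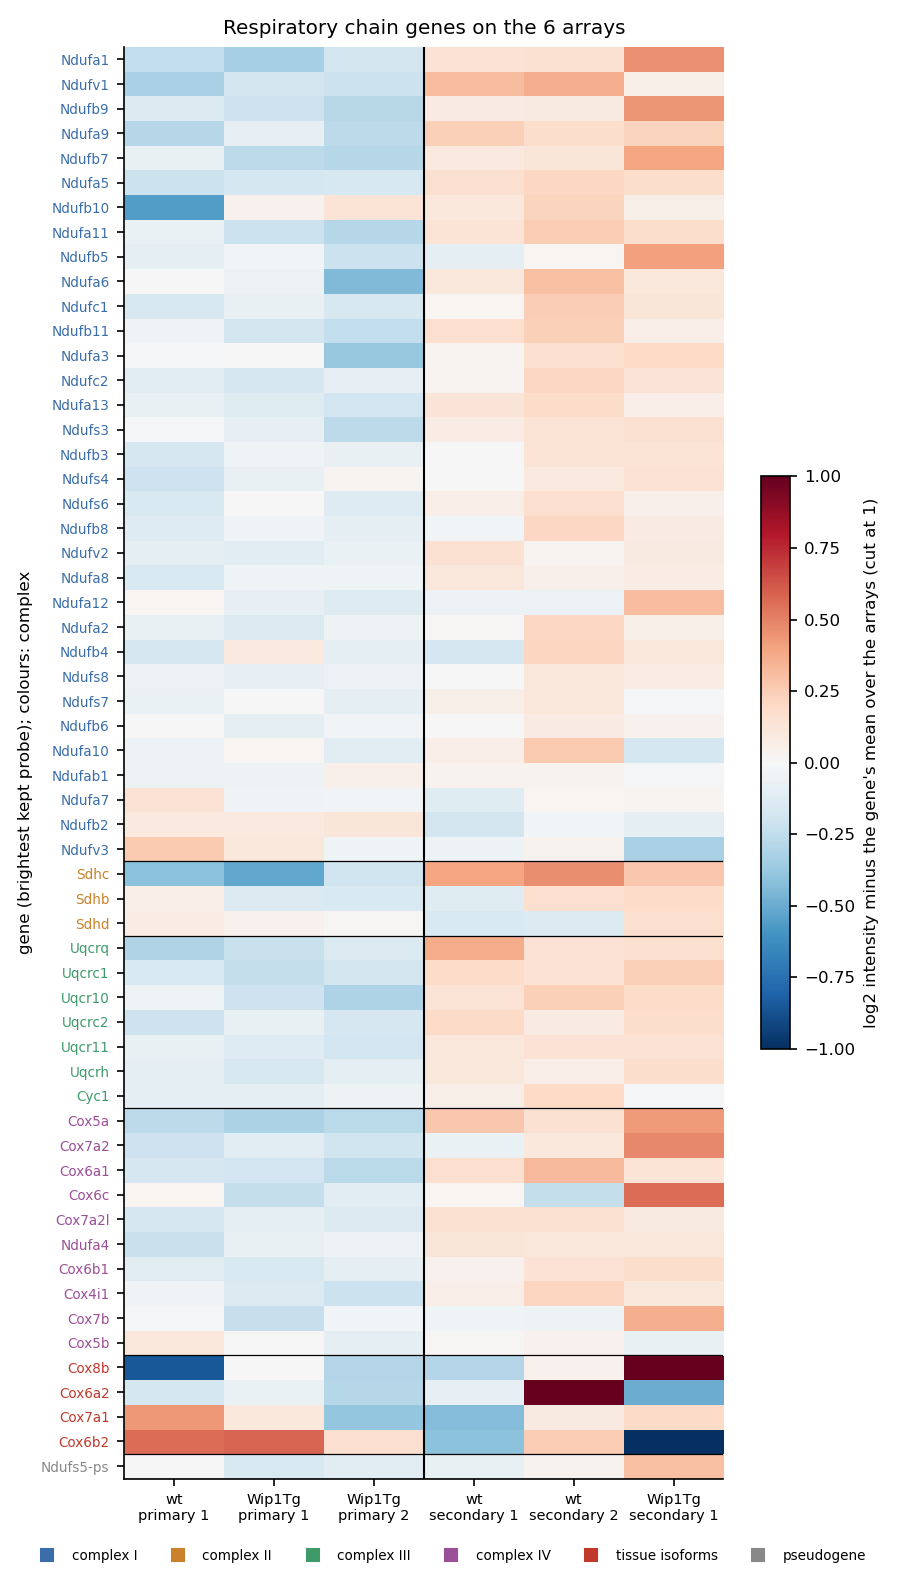
Log2 intensity of each of the 58 genes (brightest kept probe) on each of the 6 arrays, minus the gene's own mean, with colours ending at 1 either way; the vertical line parts primary from secondary arrays. For 37 genes all 3 secondary arrays stood above all 3 primary arrays, as for 24.5% of all probes, while with arrays scaled to one median most differences turned negative.

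Counted by arrays, the 3 secondary values lay above the 3 primary values for 37 of the 58 genes and below them for 1, Ndufb2. That is 65.5% of the genes, where 45.3% of all probes did not overlap between passages (24.5% higher and 20.8% lower in secondary spheres). The median over the 58 genes was 12.77 on the wt primary array, 12.74 and 12.68 on the Wip1Tg primary arrays, 12.93 and 12.99 on the wt secondary arrays and 13.04 on the Wip1Tg secondary array. These medians did not overlap between passages, but under median scaling they did, with 13.08 on the wt primary array, the highest of all, 12.72 and 12.71 on the Wip1Tg primary arrays and 12.83 to 12.94 on the secondary arrays. In raw intensity the wt primary array was likewise the highest, with a median of 8784 against 7393 to 8010 on the secondary arrays.

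Promoter sequences are shown for 5 members, picked after their values were seen, to show windows with and without the motifs for which respiratory chain promoters are known. Nuclear respiratory factor 1 (NRF1), ETS factors such as GABP and YY1 are the textbook regulators of these genes. RefSeq promoter windows of GRCm38.p6 (250 bases before to 50 after the start) were matched for 48 of the 58 genes and searched on both strands. A gene was counted if any of its windows held the motif. The NRF1 motif was found for 9 of 48 genes (18.8%, against 5.19% of all 27025 genes with a window), the ETS letters CCGGAAG for 10 (20.8% against 9.93%) and the YY1 letters AAGATGGC for 7 (14.6% against 3.19%). At least 1 of the 3 was found for 23 genes (47.9% against 16.4%). Below are the 250 bases upstream of the start, on the strand of the gene, with NRF1 and ETS matches in capitals. Cox6a1 (chr5:115348959-115349208, minus strand) and Sdhd (chr9:50603850-50604099, minus strand) hold both motifs; Sdhd did not pass for passage, and Cox6a1 did not pass but its arrays do not overlap between passages. Cox5a (chr9:57520982-57521231, plus strand), Ndufa1 (chrX:37191239-37191488, minus strand) and Cox8b (chr7:140900447-140900696, minus strand), which rose, hold none of the 3.
Cox6a1: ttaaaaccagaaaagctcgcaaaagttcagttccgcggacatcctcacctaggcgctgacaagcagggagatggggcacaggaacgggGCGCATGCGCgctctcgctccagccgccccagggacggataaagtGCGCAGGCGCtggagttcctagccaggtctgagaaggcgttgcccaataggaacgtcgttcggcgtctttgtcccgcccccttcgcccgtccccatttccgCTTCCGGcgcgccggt
Sdhd: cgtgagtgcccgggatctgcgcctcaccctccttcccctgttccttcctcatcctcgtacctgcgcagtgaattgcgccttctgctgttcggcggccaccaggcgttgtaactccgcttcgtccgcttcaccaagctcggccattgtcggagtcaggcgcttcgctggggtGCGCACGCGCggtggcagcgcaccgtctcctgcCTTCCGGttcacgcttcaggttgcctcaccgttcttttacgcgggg
Cox5a: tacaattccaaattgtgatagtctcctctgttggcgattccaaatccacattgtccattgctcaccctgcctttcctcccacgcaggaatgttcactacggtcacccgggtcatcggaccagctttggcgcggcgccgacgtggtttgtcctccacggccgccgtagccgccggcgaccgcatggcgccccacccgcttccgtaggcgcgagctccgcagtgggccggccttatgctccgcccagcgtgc
Ndufa1: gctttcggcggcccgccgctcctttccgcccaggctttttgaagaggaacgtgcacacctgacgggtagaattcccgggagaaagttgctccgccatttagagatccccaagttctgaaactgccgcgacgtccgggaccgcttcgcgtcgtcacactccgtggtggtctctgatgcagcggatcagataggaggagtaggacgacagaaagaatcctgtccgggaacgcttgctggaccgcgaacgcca
Cox8b: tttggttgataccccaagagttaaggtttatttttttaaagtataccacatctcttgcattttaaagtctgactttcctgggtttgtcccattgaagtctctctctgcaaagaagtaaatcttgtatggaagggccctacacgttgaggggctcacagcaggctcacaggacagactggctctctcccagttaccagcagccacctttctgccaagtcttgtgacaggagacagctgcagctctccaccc
Of the 7 genes past the threshold 5 had a window, and 1 of these, that of Ndufa9, held a motif, for YY1, after the start. Motif and response are not compared by these examples. A match is a run of letters and no measured binding.

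Complex I gave 33 genes, of which 30 had a positive passage difference, with a median of 0.22 log2 (8 of 33 positive under median scaling), and 2 rose. Its 5 core genes kept here encode the parts that carry electrons from NADH to ubiquinone, and 0 of them passed. Ndufv1, which binds NADH and flavin, came nearest, at 12.75 on the wt primary, 12.89 and 12.86 on the Wip1Tg primary, 13.39 and 13.44 on the wt secondary and 13.14 on the Wip1Tg secondary array (0.46 log2, SE 0.138, limma adjusted p = 0.0507). The groups did not overlap, and both wt secondary arrays were the highest. The other core genes, Ndufs3, Ndufv2, Ndufs8 and Ndufs7, lay between 0.09 and 0.22 log2. The core gene Ndufs1 was above background on 0 arrays and is not among the 58.

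Among the 28 accessory subunits of complex I, which surround the core and are needed for its assembly and stability, the median was 0.22 log2. Ndufa1, a small membrane-arm subunit encoded on the X chromosome, was at 12.83 on the wt primary, 12.74 and 12.89 on the Wip1Tg primary, 13.22 and 13.22 on the wt secondary and 13.53 on the Wip1Tg secondary array. Every secondary value lay above every primary one, and Ndufa1 rose 1.47-fold (0.55 log2, SE 0.134, limma adjusted p = 0.0270). As single arrays were left out the difference went from 0.39 to 0.72 and passed only without the wt primary array or without wt secondary 2. Ndufa9, a subunit at the junction of the arms named here because it passed, was at 12.65, then 12.86 and 12.68, in wt and Wip1Tg primary spheres and at 13.17, 13.11 and 13.16 on the secondary arrays. It rose by a fitted 0.44 log2 (SE 0.123, limma adjusted p = 0.0416), with 0.39 to 0.49 and no pass as any single array was left out.

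Of the complex I genes that did not pass, Ndufb9 had 0.45 log2 (SE 0.144, limma adjusted p = 0.0616), with 9.45 on the wt primary, 9.38 and 9.31 on the Wip1Tg primary, 9.66 and 9.67 on the wt secondary and 10.02 on the Wip1Tg secondary array. Ndufa5 did not pass by its brightest probe (0.37 log2, limma adjusted p = 0.0565), while its dimmer kept probe did (0.61 log2, limma adjusted p = 0.0405). Negative differences were seen for Ndufv3 (-0.31 log2, limma adjusted p = 0.106), Ndufb2 (-0.21, limma adjusted p = 0.246) and Ndufa7 (-0.07, limma adjusted p = 0.737). Ndufv3, a small subunit bound to the NADH-oxidising part, had 3 kept probes, and these gave -0.31, -0.48 (limma adjusted p = 0.0498) and 0.37. The probes of this gene therefore differ in sign. Among the 18 members with several kept probes, the sign for passage differed between probes in 5 (Ndufab1, Ndufb10, Ndufb11, Ndufc2 and Ndufv3).

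Complex II, the succinate dehydrogenase, has no subunit in mitochondrial DNA. Sdhc, one of its membrane anchors, was at 12.94 on the wt primary, 12.83 and 13.15 on the Wip1Tg primary, 13.74 and 13.81 on the wt secondary and 13.62 on the Wip1Tg secondary array. No secondary value reached down to the primary ones, and Sdhc rose 1.66-fold (0.73 log2, SE 0.144, limma adjusted p = 0.0137). Its difference was 0.63 to 0.84 as single arrays were left out and did not pass without the wt primary array (0.63) or without the Wip1Tg secondary array (0.84). The iron-sulphur subunit Sdhb had 0.14 log2 (SE 0.151, limma adjusted p = 0.520), and the other anchor, Sdhd, had -0.04 (SE 0.132, limma adjusted p = 0.848). The 3 kept probes of Sdhb gave 0.14 to 0.18. For Sdhb and Sdhd the arrays overlapped between passages, and whether their differences differ from that of Sdhc was not tested. Sdha, the flavin-binding subunit, was detected on 1 array only.

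All 7 kept genes of complex III had secondary arrays above primary arrays with no overlap, as had 24.5% of all probes. Their differences were 0.13 to 0.45 log2, with a median of 0.32 (2 of 7 positive, and 7 of 7 above the median of all probes, under median scaling). Of the 7 genes 1 passed, or 14.3%, against 12.9% of all probes that rose. Uqcrq, a small membrane subunit, was at 7.14 on the wt primary, 7.22 and 7.30 on the Wip1Tg primary, 7.82 and 7.59 on the wt secondary and 7.60 on the Wip1Tg secondary array. It rose 1.37-fold (0.45 log2, SE 0.133, limma adjusted p = 0.0491), and did not pass as any single array was left out, at 0.35 to 0.56 log2. Uqcrc1, a core protein on the matrix side, did not pass at 0.38 log2 (SE 0.117, limma adjusted p = 0.0550), nor did its partner Uqcrc2 at 0.32, Uqcr10 at 0.34 or the haem protein cytochrome c1, Cyc1, at 0.13. The second kept probe of Uqcr10 passed (0.39 log2, limma adjusted p = 0.0488). Uqcrfs1, the Rieske iron-sulphur protein, was above background on 0 arrays.

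Complex IV, with Ndufa4 counted here since it was reassigned from complex I, gave 10 ubiquitous genes with a median passage difference of 0.26 log2 (9 of 10 positive, and 3 of 10 under median scaling). Cox5a, a structural subunit on the matrix side, was at 13.60 on the wt primary, 13.54 and 13.59 on the Wip1Tg primary, 14.14 and 14.02 on the wt secondary and 14.29 on the Wip1Tg secondary array. The passages were clearly apart, and Cox5a rose 1.51-fold (0.60 log2, SE 0.126, limma adjusted p = 0.0177). As single arrays were left out it stayed at 0.47 to 0.72 log2 and passed without the wt primary array, Wip1Tg primary 2 or wt secondary 2. Cox7a2 (0.43 log2, SE 0.146, limma adjusted p = 0.0738) and Cox6a1 (0.39, SE 0.121, limma adjusted p = 0.0576) did not pass. Cox4i1, the ubiquitous form of the largest nuclear subunit, had 0.23 log2 (limma adjusted p = 0.204) and -0.08 under median scaling, and Cox5b had -0.06 (limma adjusted p = 0.744). The naming rule also takes in 1 pseudogene, Ndufs5-ps, counted with none of the complexes, which had 0.21 log2 (SE 0.145, limma adjusted p = 0.330).

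**Figure D2:**
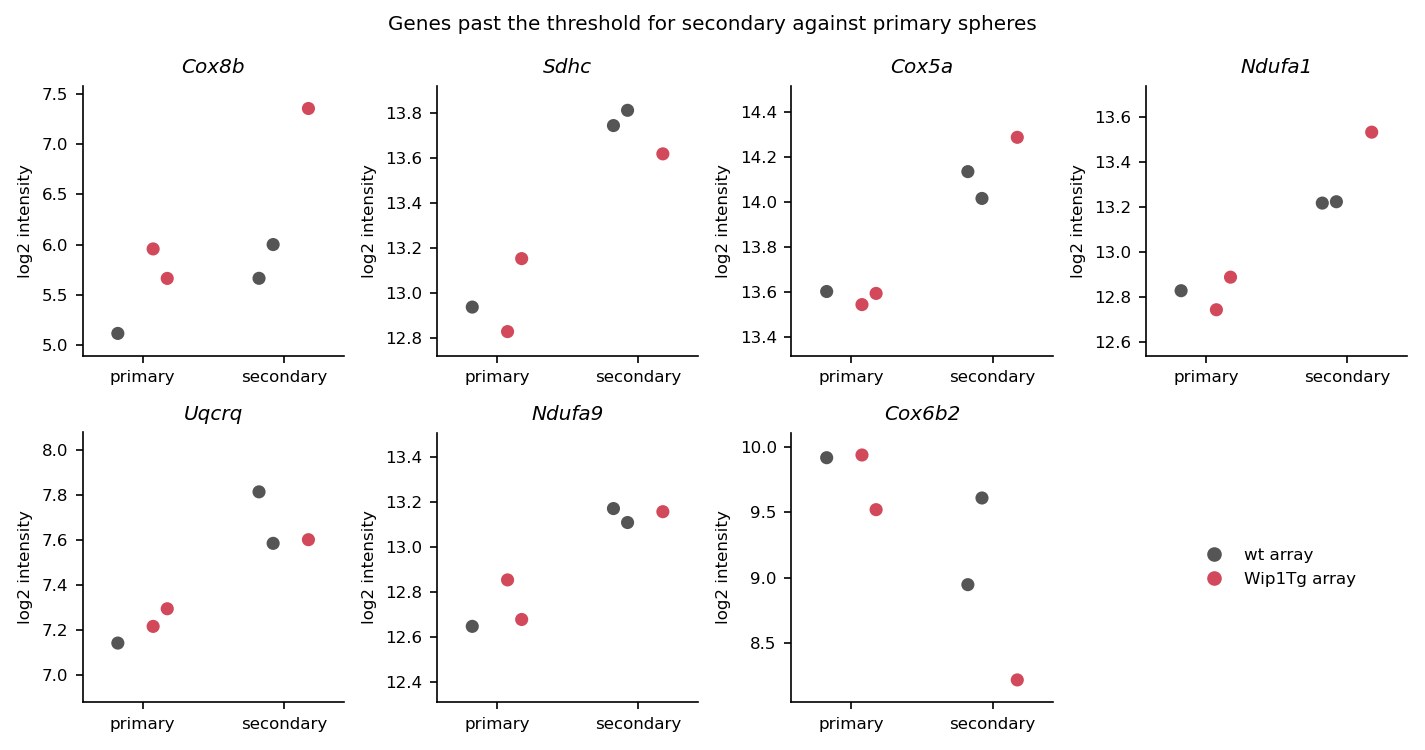
Log2 intensity on each array (points) of the 7 genes past the threshold for passage, by passage and genotype, each panel on its own scale. The passages are apart for Sdhc, Cox5a, Ndufa1, Uqcrq and Ndufa9, and overlap for Cox8b and Cox6b2, where the Wip1Tg secondary array is the extreme one.

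Of the 4 kept tissue-type isoforms of complex IV, 1 rose, 1 fell and 2 did not pass. Cox8b, the muscle and brown fat form of subunit VIII in mouse, was at 5.12 on the wt primary, 5.96 and 5.66 on the Wip1Tg primary, 5.67 and 6.0 on the wt secondary and 7.36 on the Wip1Tg secondary array. The passages overlap, and the Wip1Tg secondary array stands more than 1 log2 unit above the rest. The fitted passage difference was 1.13 log2 (SE 0.223, limma adjusted p = 0.0139), and 0.72 without that array (limma adjusted p = 0.106). It was 0.43 without background correction, where it passed, and 0.76 with genotype left out of the model, where it did not. Cox8b was not above background on the 1 wt primary array, and the mean of the 2 Wip1Tg primary arrays lay at least 1.48-fold above it. That bound rests on a single wt array and on values near background. Markers of striated muscle (8 with a probe) and brown fat (4) had mean log2 intensities of 4.83 to 5.16 and 4.70 to 4.95 on the arrays, close to background. Ckm, Acta1, Myh7, Ucp1, Elovl3 and Adipoq were detected on 0 arrays, Actc1, Myh6, Tnni2 and Cidea on 1, Des on 2 and Myog on all 6, dimly. Of the 8 muscle markers 4 were above background on Wip1Tg primary 1 and 1 or 2 on each other array.

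Cox6b2, the testis form of subunit VIb, was at 9.91 on the wt primary, 9.94 and 9.52 on the Wip1Tg primary, 8.95 and 9.61 on the wt secondary and 8.22 on the Wip1Tg secondary array. The wt secondary 2 array lay within the primary range and the Wip1Tg secondary array was the lowest. Cox6b2 fell by 1.07 log2 (SE 0.274, limma adjusted p = 0.0321), by 0.64 without the Wip1Tg secondary array, and passed only without the wt primary array or without wt secondary 2. The muscle forms Cox7a1 (-0.14 log2, SE 0.273, limma adjusted p = 0.741) and Cox6a2 (0.19, SE 0.363, limma adjusted p = 0.739) did not pass. Cox7a1 ranged from 8.67 to 9.53 with no order by passage, and Cox6a2 lay between 5.06 and 5.48 on 5 arrays and at 6.66 on wt secondary 2. Cox4i2, the lung form of subunit IV, was detected on the wt primary array only, and Cox7b2 and Cox8c, testis forms, on 0 arrays.

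The comparison of genotypes asked whether the Wip1 transgene changed these genes. It gave 0 of 58 genes past the threshold by limma, as for all 18274 probes (0%). At an unadjusted p under 0.05 there was 1 gene, Cox8b, or 1.72% of the members, against 9.51% of all probes. The fitted Wip1Tg minus wt difference was positive for 31 genes and negative for 27 (50.8% of all probes were positive), with a median of 0.003 log2, the same to 2 decimals as for all probes. For 50 of the 58 genes it was within 0.2 log2 of 0, and for 46 the 95% interval lay within 0.5 log2 either way. Under median scaling 4 were positive, with a median of -0.21 where all probes had -0.19. The 3 Wip1Tg arrays did not overlap the 3 wt arrays for 1 gene, Cox5b (-0.13 log2), or 1.72% (8.39% of all probes).

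**Figure D3:**
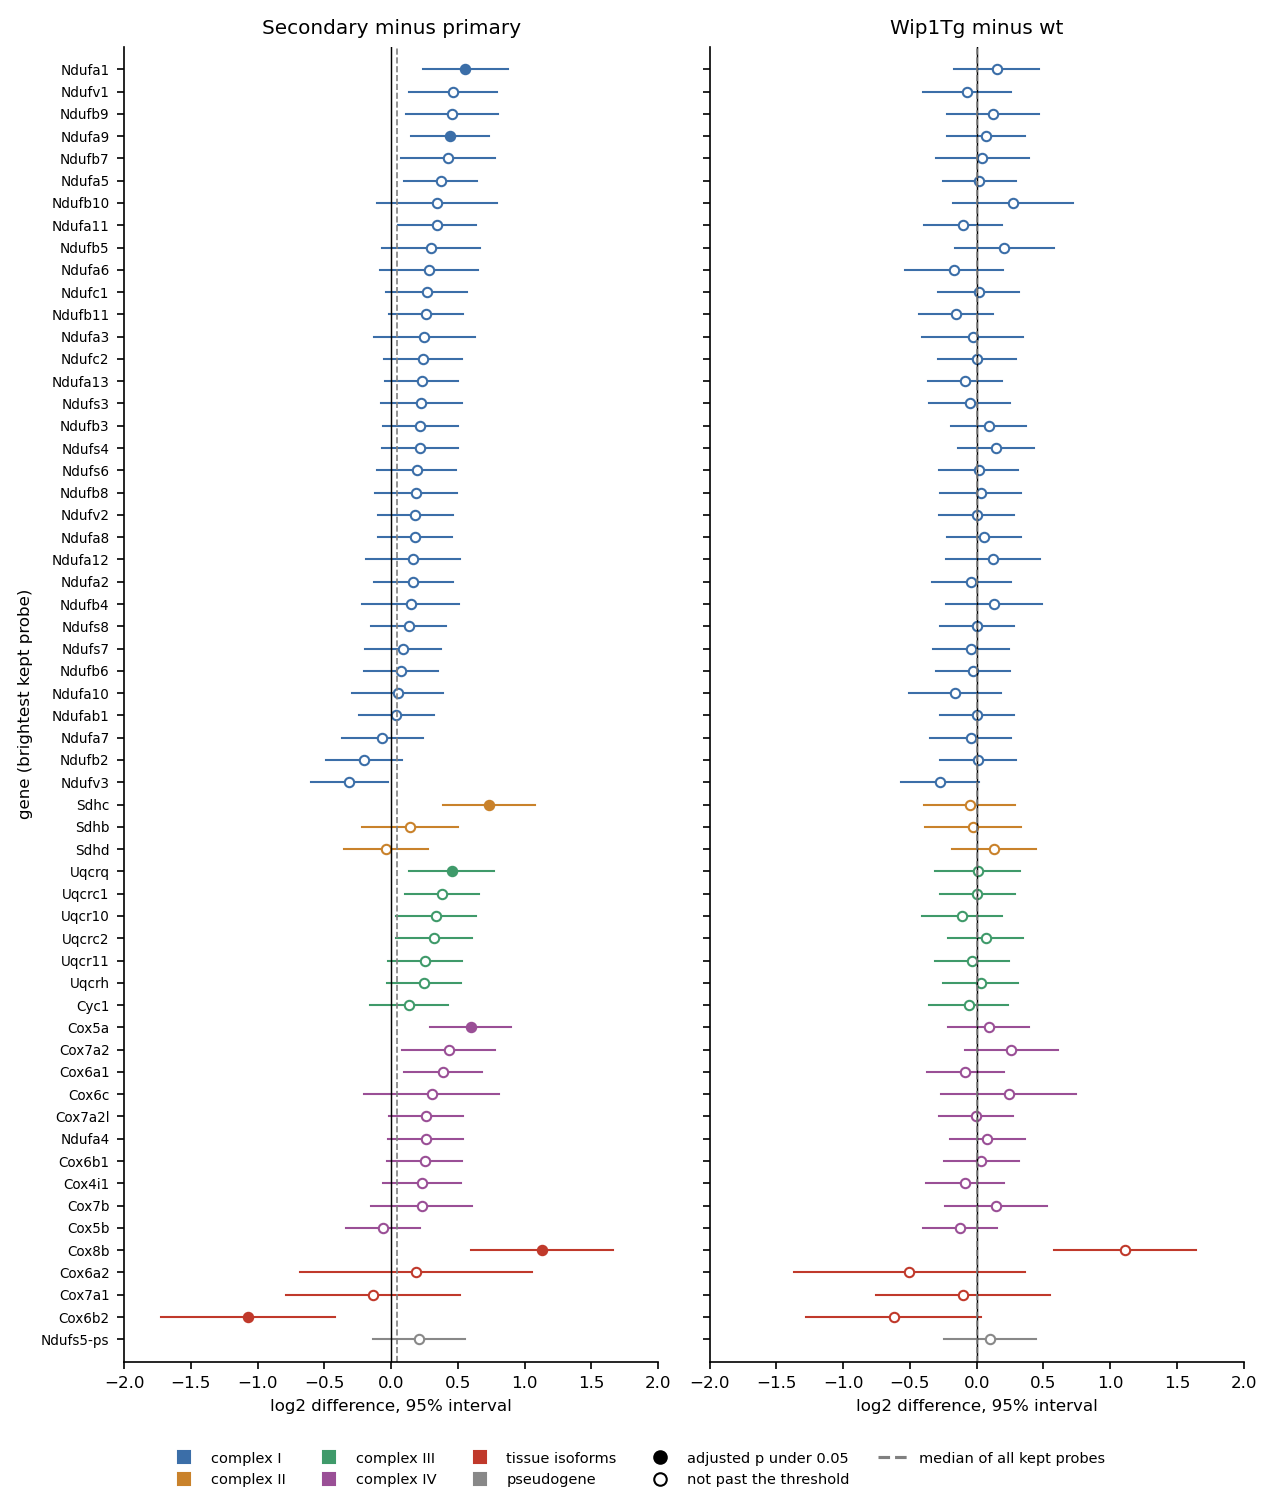
Fitted differences with 95% intervals, in log2, for the 58 genes between passages (left) and genotypes (right), with filled points past the threshold and the dashed line at the median of all kept probes. Most passage differences lie right of 0, a side that turns for most genes under median scaling, while the genotype differences of the ubiquitous subunits stay between -0.27 and 0.27.

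By complex the genotype medians were 0.00 for complex I, -0.03 for complex II, 0.00 for complex III and 0.06 for complex IV, and the 95% interval of each of the 53 ubiquitous subunits spanned 0. The ubiquitous subunits farthest from 0 were Ndufb10 (0.27 log2, SE 0.188, limma adjusted p = 0.663), Ndufv3 (-0.27, SE 0.122, limma adjusted p = 0.540), Cox7a2 (0.26, SE 0.146, limma adjusted p = 0.617) and Cox6c (0.24, SE 0.212, limma adjusted p = 0.742). Cox7a2, a form of subunit VIIa found in most tissues, had 9.28 on the wt primary, 9.42 and 9.59 on the wt secondary, 9.38 and 9.29 on the Wip1Tg primary and 9.97 on the Wip1Tg secondary array. Its wt and Wip1Tg values do not overlap within a passage, and the margin in primary spheres is small. Among the brightest probes, larger values were seen only for tissue-type isoforms. These were Cox8b at 1.11 log2 (SE 0.223, unadjusted p = 0.0018 and limma adjusted p = 0.465), Cox6b2 at -0.62 (SE 0.274, limma adjusted p = 0.538) and Cox6a2 at -0.50 (SE 0.363, limma adjusted p = 0.677). Dimmer kept probes of ubiquitous subunits also had larger values, such as -1.32 for Ndufb10, 0.78 for Ndufab1, 0.41 for Ndufa5 and 0.39 for Ndufs4. None of these passed. Among the 18 members with several kept probes, the sign for genotype differed between probes in 6.

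Whether the genotype difference itself changed with passage was tested with the 4 group means, with the spread of a group of 1 array taken to equal that of the others. No gene passed (0 of 18274 probes, 0%), and at an unadjusted p under 0.05 there were 3 of 58 members against 9.69% of all probes. These were Cox6c (0.86 log2, unadjusted p = 0.0203), Cox8b (0.83, unadjusted p = 0.0461) and Ndufb10 (-0.75, unadjusted p = 0.0197), with limma adjusted p-values all above the threshold. Cox6c, a small complex IV subunit, was at 12.93 on the wt primary, 12.68 and 12.80 on the Wip1Tg primary, 12.93 and 12.67 on the wt secondary and 13.47 on the Wip1Tg secondary array, so that 1 array stands apart. The dimmer probe of Ndufb10, an accessory subunit of the membrane arm, had an interaction of 4.01 log2 (SE 0.229, unadjusted p = 6.6e-06, limma adjusted p = 0.121). It was at 9.27 on the wt primary array and at 5.93 to 6.73 on the other 5, while the brighter probe was lowest there, at 9.36 against 9.97 to 10.15. On the wt primary array the probes of this gene thus departed in opposite directions.

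**Figure D4:**
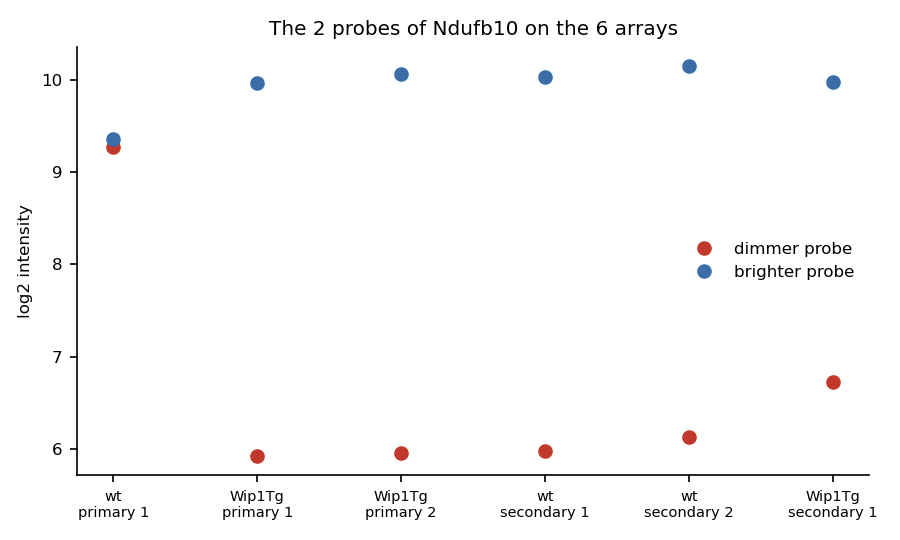
Log2 intensity of the 2 kept probes of Ndufb10 on each of the 6 arrays. The dimmer probe is at 9.27 on the wt primary array and at 5.93 to 6.73 elsewhere, and the brighter probe is at 9.36 there and at 9.97 to 10.15 elsewhere.

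Other mitochondrial groups were read from the same fits for passage, with 25.5% of all probes past the threshold as the background. Among the 8 measured subunits encoded in mitochondrial DNA the median was 0.39 log2 (0.06 under median scaling), and 2 rose, ATP6 of ATP synthase by 0.72 (SE 0.119, limma adjusted p = 0.00763) and ND4L of complex I by 1.2 (SE 0.279, limma adjusted p = 0.0238). Of 13 electron carriers and their partners 3 rose, with a median of 0.30 (-0.02 under median scaling). These were Etfa (0.54 log2), Etfb (0.46) and Etfdh (0.71), which bring electrons from fatty acid oxidation to ubiquinone. Of 15 tricarboxylic acid cycle genes 4 rose, with a median of 0.33 (0.03 under median scaling). These were Dlat of the pyruvate dehydrogenase complex (0.79 log2), the isocitrate dehydrogenase subunits Idh3a (0.47) and Idh3b (0.42), and Suclg2 of succinyl-CoA synthetase (0.67). Under median scaling, where 4.41% of all probes rose, 1 of the 8 subunits encoded in mitochondrial DNA did. Of the electron carriers and the tricarboxylic acid cycle genes 0 passed under that scaling. Etfb, Idh3a and Idh3b did not pass as any single array was left out.

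In the other mitochondrial groups genes passed in both directions. Of 14 ATP synthase genes Atp5e (0.81 log2) and Atp5j (0.47) rose, and Atp5g2 (-0.41) and the inhibitor Atpif1 (-0.41) fell, with a median of 0.11 (-0.21 under median scaling). Under median scaling 0 of the 14 rose and 2 fell. Atp5j, Atp5g2 and Atpif1 did not pass as any single array was left out. Of 39 assembly factors 1 rose, Taco1 (0.53 log2), which activates translation of a complex IV subunit, and 3 fell, the complex I assembly factors Timmdc1 (-2.46) and Tmem126b (-0.89) and the ATP synthase factor Tmem70 (-0.60). The median of the assembly factors was 0.13, with 25 of 39 positive (-0.18 under median scaling). Timmdc1 was at 10.71 on the wt primary, 9.99 and 7.77 on the Wip1Tg primary, 7.48 and 7.61 on the wt secondary and 7.13 on the Wip1Tg secondary array, so that Wip1Tg primary 2 lay near the secondary arrays, and it passed only without Wip1Tg primary 1 or without Wip1Tg primary 2. Of 73 mitochondrial ribosome genes 8 rose and 1 fell, with a median of 0.02 (-0.27 under median scaling), and of 22 import and outer membrane genes 1 rose and 1 fell, with a median of -0.02 (-0.31).

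Among 11 regulators of mitochondrial biogenesis 1 rose and 3 fell, with a median of -0.14 log2 (-0.43 under median scaling). Ppargc1a, the coactivator PGC-1alpha, was at 7.57 on the wt primary, 7.78 and 7.49 on the Wip1Tg primary, 9.23 and 8.97 on the wt secondary and 8.93 on the Wip1Tg secondary array. It rose 2.65-fold (1.41 log2, SE 0.152, limma adjusted p = 0.00173) and passed without any single array, at 1.29 to 1.53 log2, and under median scaling (1.06). Its relative Pprc1 (-0.55 log2), the ETS partner Gabpb1 (-0.66) and Tfb1m (-0.84) fell, while Tfb2m had 0.42 and did not pass (limma adjusted p = 0.0666). Pprc1 did not pass as any single array was left out. Glycolysis genes had a median of -0.40 log2 over 20 genes (-0.73 under median scaling), with 4 that rose (Aldoc, Pdk2, Pdk4 and Pfkm) and 4 that fell (Ldha, Pfkl, Pfkp and Slc2a3). Pdk2 and Pdk4 encode kinases that restrain pyruvate dehydrogenase, and Aldoc is at once an astrocyte marker. For genotype 0 of the 215 genes of these lists passed by limma. An unadjusted p under 0.05 was seen for 6, of which 4 were glycolysis genes, against 9.51% of all probes. Of the 20 glycolysis genes 17 had a negative difference (median -0.25 log2) and 3 a positive one, where 50.8% of all probes were positive. Under median scaling 20.67% of all probes were positive, and the median was -0.47 for the glycolysis genes and -0.19 for all probes.

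**Figure D5:**
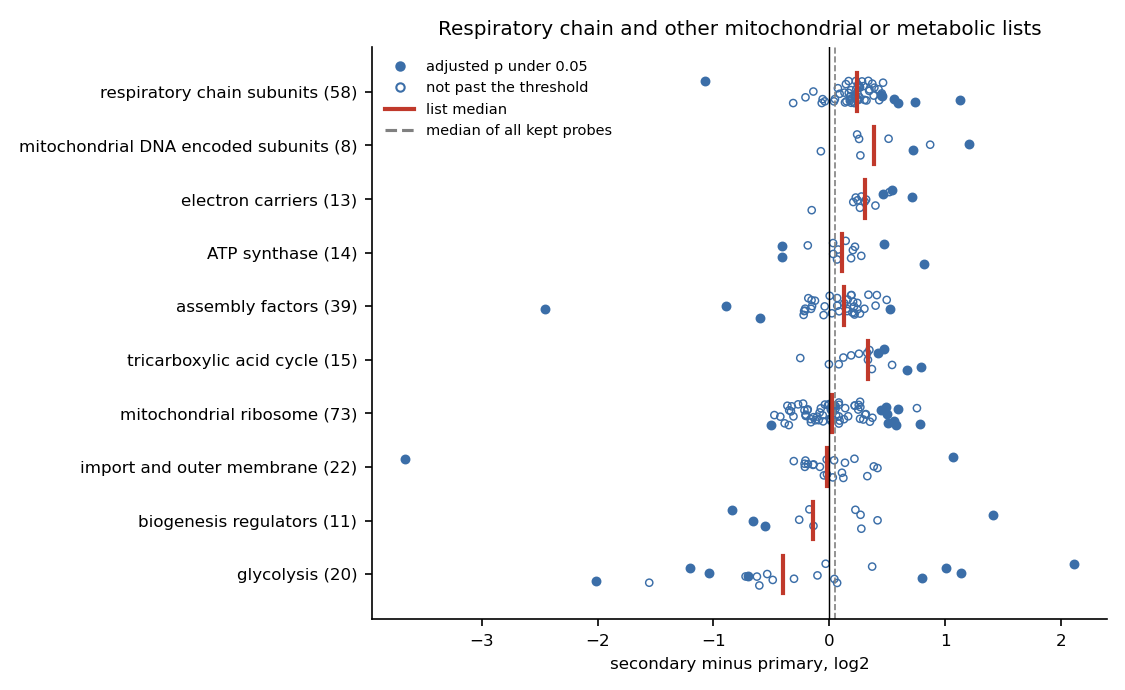
Secondary minus primary difference, in log2, of each gene of the respiratory chain and of 9 related lists (gene numbers in brackets), with filled points past the threshold, red bars at list medians and the dashed line at the median of all kept probes. Medians run from -0.40 for glycolysis to 0.39 for the subunits encoded in mitochondrial DNA; under median scaling those of the respiratory chain, the electron carriers, ATP synthase, the assembly factors and the mitochondrial ribosome turn negative.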

How the data were processed

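The 6 arrays of 45281 probes were deposited as non-normalised linear intensities. Per the file headers, each intensity has a detection p-value beside it. Every column was mapped to a sample. The deposited value table holds intensities that the values show to be quantile normalised, with sorted columns within 1.55 of each other. The scanner software is not given in the sources used here.

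The neqc function (limma 3.58.1, R 4.3.3) removed background, added 16, equalised quantiles and took log2. A probe was kept if its detection p was under 0.05 on 3 or more arrays. Gene symbols came from the platform annotation (34885 probes with 1 symbol, 18 with several, 10378 with none). An additive limma model of genotype and passage (3 residual degrees of freedom) was fitted to every kept probe, and a model of the 4 group means (2 residual degrees of freedom) gave the interaction, with Benjamini-Hochberg adjustment over all 18274 kept probes and a threshold of 0.05. For Cox8b, not above background in wt primary spheres, the "at least" fold was taken over its own value there or the lowest detected value of that array, whichever was higher. The fit was tested on simulated data.

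Members and gene lists were chosen with earlier results of these data known. Named were, per complex and factor, the 3 largest positive and negative differences, all of complex II, tissue-type isoforms, Cox4i1, Cox5a, Ndufs1, Ndufv1, Uqcrfs1, Cyc1 and the 3 smallest interaction p-values. Ndufa9 and the members of other lists were named because they passed, and Ndufa5 because its dimmer probe did. Promoter windows are from RefSeq (GRCm38.p6). The alternatives were other background correction, scaling, filters, 1 probe per gene, variance moderation, covariates and arrays.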

Additional observations from a re-analysis of the deposited data

How the results depend on the processing

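With 6 arrays the median 95% interval of a passage difference reached 0.297 log2 to either side, so at that precision a smaller difference has an interval that spans 0. No paired analysis was possible because the titles number only the Wip1Tg primary and wt secondary arrays, which differ in genotype and passage at once. Count of members past the threshold for passage (7 as reported): 24 without background correction and also 24 from the deposited value table, whose values are the same, 26 with trend and robust moderation, 11 with detection on all 6 arrays, 11 with 1 feature per gene, 4 under median scaling, 1 on the arrays with Xist signal and 0 to 6 as single arrays were left out. Probes past the threshold numbered 4656 as reported, 1470 on the arrays with Xist signal and 1775 to 3951 as single arrays were left out. For genotype 2 probes passed under median scaling and 2 with trend and robust moderation, none of them a member. The median passage difference was -0.076 under median scaling and 0.219 to 0.284 as single arrays were left out. The median genotype difference was -0.209 under median scaling, -0.0731 with passage left out and -0.0219 to 0.00979 as single arrays were left out. For these changes the cause was not tested, beyond the smaller number of arrays where arrays were left out.

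Of 1061 values recomputed for single genes 813 kept direction and side of the threshold, 155 lost and 35 gained a pass, and 58 changed sign (16 for passage and 42 for genotype), 0 of them past the threshold after the change. Sign changes for passage under median scaling were Cox4i1 at -0.0838, Cyc1 at -0.146, Sdhb at -0.132 and Uqcr10 at -0.0199. On the arrays with Xist signal they were Cox5b at 0.0164, Cox6a2 at -0.206, Cox7a1 at 0.576, Ndufa7 at 0.0574 and Sdhd at 0.147. As single arrays were left out, Cox6a2 ranged from -0.317 to 0.689, Cox7a1 from -0.605 to 0.328, Ndufa7 from -0.194 to 0.0621, Sdhb from -0.0475 to 0.332 and Sdhd from -0.212 to 0.133. Sign changes for genotype under median scaling were Cox5a at -0.106, Cox7b at -0.0585, Ndufa1 at -0.0744, Ndufb5 at -0.00934, Sdhd at -0.0915, Uqcrc2 at -0.173, Uqcrh at -0.151 and Uqcrq at -0.205. With passage left out they were Cox5a at -0.109, Ndufa1 at -0.0349, Uqcrc2 at -0.0406, Uqcrh at -0.0531 and Uqcrq at -0.143. On the arrays with Xist signal they were Cox7a1 at 0.361, Ndufb10 at -0.103, Sdhb at 0.161, Uqcr11 at 0.0149 and Uqcrq at -0.0982. Uqcrq was at -0.000286 without background correction and in the deposited value table. As single arrays were left out the genotype difference ranged from -0.0333 to 0.212 for Cox5a, -0.192 to 0.669 for Cox6c, -0.572 to 0.361 for Cox7a1, -0.118 to 0.411 for Cox7b, -0.15 to 0.0297 for Cyc1, -0.0123 to 0.312 for Ndufa1, -0.338 to 0.0174 for Ndufa10, -0.103 to 0.651 for Ndufb10, -0.0285 to 0.444 for Ndufb5, -0.276 to 0.126 for Ndufv1, -0.219 to 0.161 for Sdhb, -0.16 to 0.0532 for Sdhc, -0.0435 to 0.301 for Sdhd, -0.0912 to 0.0149 for Uqcr11, -0.0318 to 0.0892 for Uqcrh and -0.0982 to 0.113 for Uqcrq.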
